A study of Mus musculus with 6 samples.

Results

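*Hlf* and 9 genes of the PAR bZIP family and the circadian clock were followed in hematopoietic stem cells (HSCs) with and without Med23, a subunit of the Mediator complex that links transcription factors to RNA polymerase II. The 10 genes, of 34745 in the deposited tables, were *Hlf*, *Tef*, *Dbp*, *Nfil3*, *Per1*, *Per2*, *Nr1d1*, *Nr1d2*, *Bhlhe40* and *Bhlhe41*. They were taken by gene name, and the names were selected on earlier KO and WT values of these same libraries, *Hlf* among them. Differences between KO and WT in these 10 genes are therefore given as a description. The tests over all genes are reported for them only as counts and support nothing here.

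Bulk RNA-seq of HSCs sorted from the bone marrow of adult C57BL/6 mice comprised 3 WT and 3 *Med23*-deficient (KO) libraries, sorted as CD150+CD34-CD48- LSK cells, where LSK denotes lineage-negative, Sca1-positive and cKit-positive. Both groups carried floxed *Med23* alleles (written Med23floxp/flowp in the labels), and the KO mice carried the *Mx1-cre* transgene in addition. The *Mx1* promoter responds to interferon, so Cre is switched on by poly(I:C) and is not restricted to HSCs. The WT libraries come from mice without Cre, and the sources do not say for these libraries whether their donors received poly(I:C), how many animals gave each library or at what hour the marrow was taken.

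The PAR bZIP proteins Hlf, Tef and Dbp, named for a region rich in proline and acidic amino acids beside a basic leucine zipper, activate transcription from DNA elements called D-boxes, and Nfil3 binds the same elements as a repressor. Tef and Dbp are outputs of the circadian clock, in which Clock and Bmal1 (gene *Arntl*) activate genes through E-boxes, Per and Cry proteins inhibit Clock and Bmal1, and the nuclear receptors Rev-erb alpha and beta (genes *Nr1d1* and *Nr1d2*) repress *Arntl* and *Nfil3*. In blood, *Hlf* is known for expression that is highest in HSCs and lost on differentiation, and for keeping these cells quiescent.

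The libraries held from 3537269 (the one labelled WT replicate 3) to 8131344 (WT replicate 2) counted reads. *Med23*, the targeted gene, was at 47.6, 70.8 and 24.1 CPM (counts scaled to the normalized library size) in WT and at 31.6, 29.8 and 36.8 CPM in KO. Values are given here and below in the order of replicates 1, 2 and 3. The library labelled WT replicate 3 thus lay below every KO library. Reads were counted over the whole gene, and the part that Cre removes was not examined, so these levels do not test the labels. Libraries of 1 group differed by more than counting noise (chi-square per degree of freedom from 24.4 to 50.02). The sources do not say that they came from separate animals. Summed counts of 4 Y-linked genes were 1036, 1855 and 1 in WT and 1529, 1606 and 0 in KO, in the order of replicates. The libraries numbered 3 thus lacked the male cells of the others, so their donors differed. Between the libraries numbered 1 and 2 the spread may be technical. All 10 HSC markers examined were detected in every library. Their summed level was 2217 to 2491 CPM in WT and 1952 to 2305 CPM in KO. Of the markers of T and natural killer cells, *Cd3e*, *Cd3d*, *Cd3g* and *Cd8a* were at 0 throughout. *Nkg7* was at 30.1, 19.7 and 40.2 CPM in WT and at 20.5, 13.6 and 14.8 CPM in KO. *Cd4* was counted 47, 1 and 14 times in WT and 0, 14 and 0 times in KO. Markers of skeletal muscle summed to 133 to 334 CPM in WT, with the highest sum in the library labelled WT replicate 3, and to 3.44 to 6.92 CPM in KO. Of the 10 muscle markers 9 were tested, and all 9 lay below in every KO library, beside 6.15% of all genes tested. With edgeR 3 were called lower, as were 7 of all 12513 genes. Granulocyte-monocyte markers summed to 487 to 649 CPM in WT and 719 to 1041 CPM in KO. That separation rested on *Prtn3*, named after its values were seen, since without it the sums overlapped (404 to 545 and 415 to 685 CPM). The 685 CPM were those of KO replicate 3. There *Mpo*, also named after its values were seen, was at 175 CPM, against at most 4.72 CPM in any other library. In such bulk samples a smaller number of cells of a type and less RNA per cell cannot be told apart.

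Regulatory elements of the clock were looked for in promoter windows, from 250 bases before to 50 bases after the transcription start, which RefSeq gives on GRCm38.p6 for 8 of the 10 genes in 10 windows. *Per2* and *Bhlhe40* had no window. Both strands were searched for fixed letters or patterns, so elements outside the windows or of another form would be missed. The E-box letters CACGTG were in the windows of *Per1*, *Tef* (at both of its starts) and *Bhlhe41*, and in 7.15% of all 32851 promoter windows. The cAMP response element (CRE), TGACGTCA, was in the *Hlf* window, and in 1.79% of all windows. Neither form of the D-box, TTATGTAA or TTACGTAA, was in any window of these genes (0.938 and 0.119% of all windows), nor was the RORE, the element bound by Rev-erb proteins (0.384% of all windows). The stretches below show the elements in capitals, 5′ to 3′ on the strand of the gene, because they are the only matches and sit before genes with quite different levels in these cells. Their first capital lies 9 bases before the start in *Hlf*, 166 in *Per1*, 127 and 138 in *Tef* and 153 in *Bhlhe41*.
Hlf, chr11:90390892-90390953, minus strand: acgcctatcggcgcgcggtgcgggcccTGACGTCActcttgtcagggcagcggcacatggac
Per1, chr11:69098756-69098815, plus strand: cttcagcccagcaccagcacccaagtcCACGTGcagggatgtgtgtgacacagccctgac
Tef, upstream start, chr15:81802519-81802578, plus strand: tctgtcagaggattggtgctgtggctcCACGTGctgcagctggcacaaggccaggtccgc
Tef, downstream start, chr15:81811249-81811308, plus strand: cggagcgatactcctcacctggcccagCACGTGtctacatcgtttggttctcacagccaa
Bhlhe41, chr6:145865541-145865600, minus strand: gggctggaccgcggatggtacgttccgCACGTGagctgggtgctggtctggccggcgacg

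The 10 genes spanned a wide range of levels per length in these HSCs. Over the 6 libraries *Hlf* had the highest mean, 33.0 normalized CPM per kilobase of annotated exon, followed by *Per1* at 30.8. The remaining means were 8.46 for *Bhlhe40*, 7.23 for *Nr1d2*, 6.65 for *Dbp*, 5.49 for *Per2*, 4.72 for *Tef*, 4.62 for *Nfil3* and 4.23 for *Nr1d1*, all on the same CPM per kilobase scale. *Bhlhe41* had at most 3 counts in any library. From *Hlf* to *Nr1d1* the range over libraries of each gene overlapped that of its neighbour in this order. Within libraries, however, *Per1* exceeded *Bhlhe40* in 6 of 6, whereas for the other neighbours down to *Nr1d1* the gene of higher mean was ahead in 2 to 4 of 6. *Hlf*, at 21.7 or more in every library, nevertheless exceeded the highest library of each gene other than *Per1*, which was 14.4 for *Bhlhe40*. The order of *Hlf* and *Per1* depends on the length used. In the deposited FPKM values, which rest on lengths of 11591 bases for *Hlf* and 8265 for *Per1* against 6681 and 5631 bases of annotated exon, *Per1* came first with a mean of 20.8 against 18.7 FPKM for *Hlf*. By mean FPKM *Hlf* lay above 77.2% of the 12513 genes with enough counts to be tested.

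Of the 10 genes, 9 were tested, and *Bhlhe41* had too few counts. With edgeR's quasi-likelihood test none of the 9 passed an adjusted p of 0.05, where 9 of all 12513 genes did (0.0719%). At an unadjusted p under 0.05 there was 1 of the 9, *Hlf*, and 715 of all genes. DESeq2 and limma called none of them either. *Hlf* was also the only one of the 9 in which every KO library lay below every WT library, as did 6.15% of all genes. None of the 9 lay above in every KO library, as did 6.25% of all genes. Estimates were lower in KO for 7 of the 9 and higher for 2, with a median log2 fold change of -0.50 beside -0.0054 for all genes tested. Because the names were chosen with these values known, nothing is read from these counts.

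*Hlf* (ENSMUSG00000003949, chromosome 11 from 90336536 to 90390895 on GRCm38, minus strand), the PAR bZIP factor known from HSCs, was counted 1013, 2113 and 1215 times in WT and 715, 864 and 882 times in KO. On the normalized scale these were 208, 259.7 and 376 CPM in WT and 145, 157 and 178 CPM in KO. All WT libraries were above all KO libraries, and the 3 KO libraries lay close together while the WT libraries spread upwards to the library labelled WT replicate 3. The means were 281 ± 85.9 CPM in WT and 160.2 ± 17.0 CPM in KO (SD, n = 3), and the fitted KO level was 0.571 times that of WT, or -0.81 ± 0.25 on the log2 KO/WT scale (fitted difference and its standard error, also below). The deposited FPKM values, which are not scaled by TMM, also did not overlap, at 18.4, 22.4 and 29.6 in WT and 12.96, 14.1 and 14.8 in KO. Without the library labelled WT replicate 3, which also had the lowest *Med23* and the highest muscle marker sum, log2 KO/WT was -0.54 ± 0.22. That library had the fewest counted reads, 3537269, and CPM are counts over such totals. Before scaling, *Myh3*, the muscle marker with most counts, was counted 283, 346 and 329 times in WT, so not highest there. Muscle markers moved with the groups, and their part in the *Hlf* difference was not tested. Among the WT libraries both were highest in the library labelled WT replicate 3. Muscle markers were lowest in WT replicate 2 and *Hlf* in WT replicate 1. An order of 3 libraries decides nothing here.

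**Figure D1:**
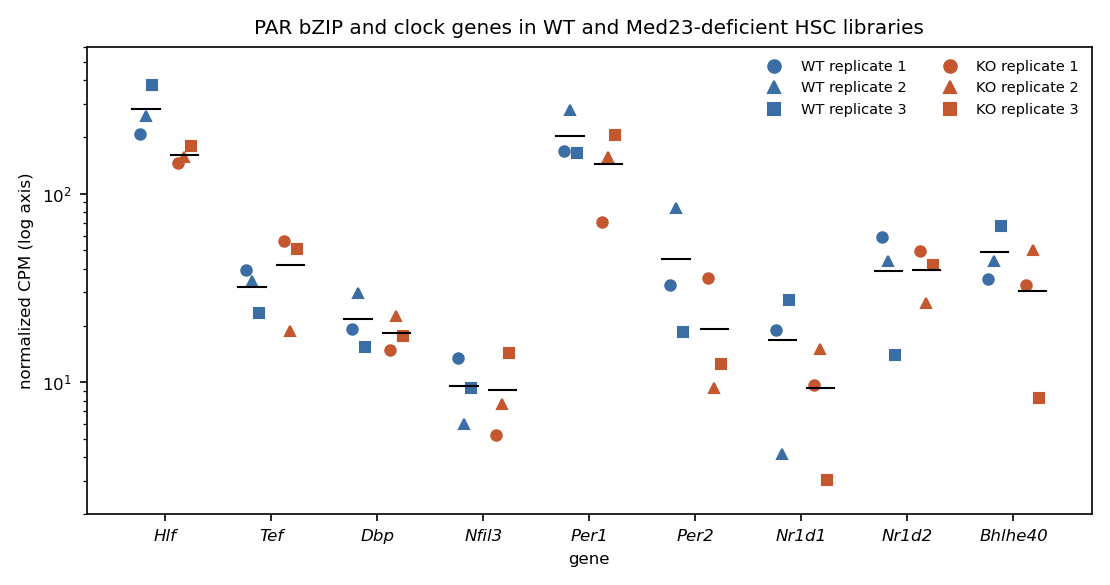
Normalized CPM (log axis) of the 9 genes with enough counts, in 3 WT (blue) and 3 KO (orange) libraries; marker shapes give the replicate number and black lines the group means. For *Hlf* all WT points, from 208 to 376 CPM, lie above all KO points, from 145 to 178 CPM, and for the other genes the groups overlap.

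In the other PAR bZIP genes the groups overlapped. *Tef* (chromosome 15 from 81802421 to 81826863), a clock output and activator like *Hlf*, was at 39.2, 34.3 and 23.2 CPM in WT and at 56.3, 18.7 and 51.2 CPM in KO. The KO libraries enclosed the WT libraries, and log2 KO/WT was 0.38 ± 0.45. *Dbp* (chromosome 7 from 45705088 to 45710203), the founding clock output of the family, was at 19.3, 29.9 and 15.5 CPM in WT and at 14.8, 22.4 and 17.6 CPM in KO. Here the groups overlapped almost fully, with log2 KO/WT at -0.24 ± 0.45. *Dbp* shares 18.01% of its exon bases with *Sphk2* on the opposite strand. How strand was used in counting is not given in the sources used here, so reads of *Dbp* and *Sphk2* may not be fully separated.

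*Nfil3* (chromosome 13 from 52967209 to 52981073), the repressor at D-boxes, was at 13.5, 6.02 and 9.27 CPM in WT and at 5.27, 7.64 and 14.4 CPM in KO, so that both the lowest and the highest library were KO. Its log2 KO/WT was -0.08 ± 0.69. Per kilobase of exon, the summed level of *Hlf*, *Tef* and *Dbp* was 42.5, 53.2 and 64.3 CPM in WT and 33.8, 33.4 and 39.1 CPM in KO. This sum followed *Hlf*, which made up 73.1, 73.1 and 87.4% of it in WT and 64.2, 70.5 and 68.3% in KO. For both the sum and the share, no KO library reached the lowest WT library. Both contain *Hlf*, selected with its values known, so this is no separate result. The ratio of the activator sum to *Nfil3*, 6.36, 17.9 and 14.1 in WT and 12.99, 8.85 and 5.51 in KO, overlapped between the groups.

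**Figure D2:**
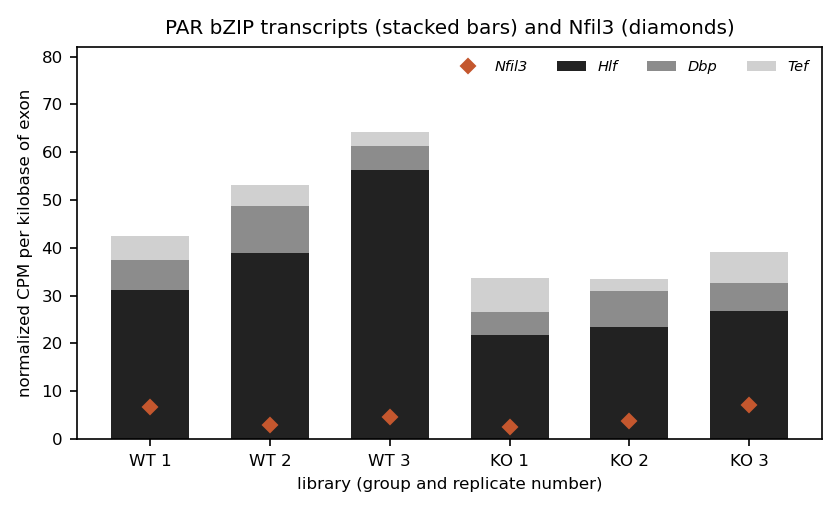
Level per length (normalized CPM per kilobase of exon, from 0) of *Hlf*, *Dbp* and *Tef* as stacked bars and of *Nfil3* as diamonds in each of the 6 libraries. The bars reach 42.5 to 64.3 in WT and 33.4 to 39.1 in KO, and *Hlf* (black) is the largest part in every library.

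Among the negative limbs of the clock, *Per1* (chromosome 11 from 69095217 to 69109960), whose protein inhibits Clock and Bmal1 and whose gene is also induced by cAMP and glucocorticoids, was at 169, 276 and 164 CPM in WT and at 70.5, 157 and 204 CPM in KO. KO replicate 1 was lowest, and KO replicate 3 lay above 2 of the WT libraries. Log2 KO/WT was -0.50 ± 0.37, and -0.17 without KO replicate 1. *Per2* (chromosome 1 from 91415982 to 91459324) was at 32.8, 83.9 and 18.5 CPM in WT and at 35.7, 9.28 and 12.5 CPM in KO. WT replicate 2 alone stood far above the rest, and the library with the lowest *Per1*, KO replicate 1, had the highest *Per2* of its group. Log2 KO/WT of *Per2* was -1.24 ± 0.65, larger in size than that of *Hlf* but with overlapping groups. It was -0.42 without WT replicate 2 and -2.05 without KO replicate 1.

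Of the genes of the Rev-erb receptors, *Nr1d1* (chromosome 11 from 98767932 to 98775333) was at 18.9, 4.18 and 27.2 CPM in WT and at 9.72, 15.1 and 3.04 CPM in KO. *Nr1d2* (chromosome 14 from 18204054 to 18239127) was at 59.0, 43.9 and 13.9 CPM in WT and at 49.4, 26.2 and 42.1 CPM in KO. The library labelled WT replicate 3 thus had the highest *Nr1d1* and the lowest *Nr1d2* of all 6, and KO replicate 3 the lowest *Nr1d1*. Log2 KO/WT was -0.84 ± 0.79 for *Nr1d1* and 0.0044 ± 0.50 for *Nr1d2*. With both libraries numbered 3 left out they were 0.13 and -0.43, the opposite direction in both. *Nr1d1* had 15 to 92 counts per library and shares 8.55% of its exon bases with *Thra* on the opposite strand, so a part of its reads may belong to *Thra*.

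The DEC proteins, encoded by *Bhlhe40* and *Bhlhe41*, compete with Clock and Bmal1 for E-boxes. *Bhlhe40* (chromosome 6 from 108660629 to 108666925) was at 35.5, 44.0 and 67.7 CPM in WT and at 32.8, 50.6 and 8.30 CPM in KO. KO replicate 3 was far below the other 5 libraries, among which the groups overlapped. Log2 KO/WT was -0.68 ± 0.56, and -0.23 without KO replicate 3. *Bhlhe41* (chromosome 6 from 145858243 to 145865558) was counted 0, 3 and 2 times in WT and 2 times in each KO library. All of these are at or under the 3 counts taken as the smallest detectable signal, and no fold change is given.

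Among the 9 tested genes, the spread between libraries of 1 group, pooled over WT and KO, was smallest for *Hlf*. Within WT alone the SD of log2(CPM + 0.5) was 0.43 for *Hlf*, above *Tef* (0.39) and *Per1* (0.42). Within KO it was 0.15 for *Hlf*. For the other clock genes the SD below was not computed, and some of them also varied little. *Arntl*, named here after its values were seen, ranged from 37.4 to 45.7 CPM in WT and from 30.4 to 34.0 CPM in KO. *Npas2* ranged from 1.44 to 7.50 CPM in WT and from 9.11 to 28.8 CPM in KO. The pooled within-group SD of log2(CPM + 0.5) was 0.32 for *Hlf* and 0.39 for *Dbp*, beside a median of 0.43 over the 10057 genes with a mean of at least 10 CPM. It was 0.63 for *Nfil3*, 0.64 for *Per1*, 0.67 for *Tef*, 0.83 for *Nr1d2*, 0.99 for *Bhlhe40*, 1.04 for *Per2* and 1.24 for *Nr1d1*. Of those 10057 genes, which take in all levels above that minimum, 93.6% had a smaller SD than *Per2* and 96.3% a smaller SD than *Nr1d1*, but 31.4% a smaller one than *Hlf*. Between the lowest and the highest of the 6 libraries *Per2* ranged 9.04-fold, *Nr1d1* 8.96-fold and *Bhlhe40* 8.16-fold, against 2.59-fold for *Hlf* and 2.02-fold for *Dbp*. No single library was extreme for all of them. WT replicate 2 was highest for *Per1*, *Per2* and *Dbp*, the library labelled WT replicate 3 was highest for *Hlf*, *Nr1d1* and *Bhlhe40*, and KO replicate 3 was lowest for *Nr1d1* and *Bhlhe40* and highest for *Nfil3*.

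**Figure D3:**
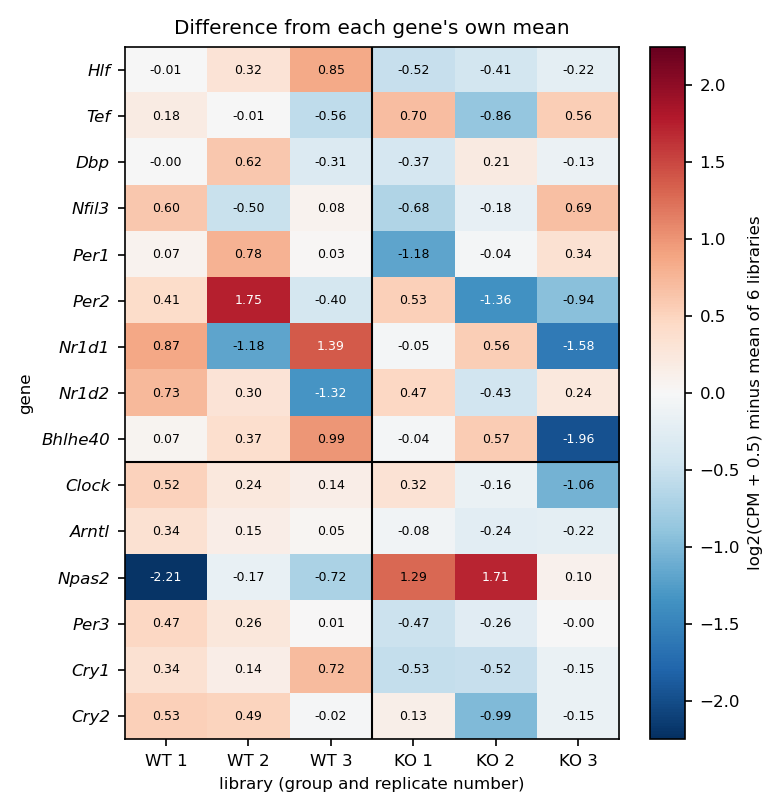
Heat map of log2(CPM + 0.5) minus the mean of the 6 libraries for the 9 tested genes (above the line) and 6 further transcription factors and repressors of the clock (below it), by library. *Hlf* ranges from -0.52 to 0.85 with WT and KO apart, whereas *Per2* reaches 1.75 in WT replicate 2 and *Bhlhe40* -1.96 in KO replicate 3.

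The likeness of profiles to that of *Hlf* was measured as the root mean square difference between log2(CPM + 0.5) values centred on each gene's mean over the 6 libraries. The 5 nearest genes to *Hlf* among 10056 compared were *Ppdpf* (0.10), *Ctns* (0.11), *Hint1* (0.12), *Eef1d* (0.14) and *Trio* (0.14). Each was highest in the library labelled WT replicate 3 and had a negative log2 fold change, from -0.84 to -0.58. Both traits follow from the choice by likeness to *Hlf* and are no separate result. The median difference over all compared genes was 0.62. *Per1* stood at 0.54 and *Dbp* at 0.55, with 36.4 and 38.0% of genes nearer to *Hlf*. *Bhlhe40* was at 0.84, *Tef* at 0.86, and *Nr1d1*, *Per2* and *Nr1d2* at 1.02, 1.03 and 1.04, with 77.8% or more of genes nearer. *Nfil3* was under the minimum level for this comparison. Of the other clock genes described below, 14 were compared, and *Cry1* was nearest at 0.18, with 0.179% of genes nearer to *Hlf*. *Arntl* and *Per3* were at 0.41 each and *Npas2* at 1.60. The 7 clock output genes compared lay between 0.37 (*Klf9*) and 1.40 (*Nampt*), with *Tsc22d3* at 0.39 and 11.3% of genes nearer. The difference is also small for genes that vary little, whatever the order of their libraries. Among WT libraries *Tsc22d3* was lowest, at 410 CPM, in the one labelled replicate 3, where *Hlf* was highest. Genes of these lists are named here after their values were seen. The difference from *Hlf* thus ranged from small (*Cry1*) to large (*Per2*, *Nr1d2* and *Npas2*) among clock genes.

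Of 19 other clock genes, 16 were tested, and none passed an adjusted p of 0.05 with edgeR or with DESeq2. At an unadjusted p under 0.05 there was 1, *Npas2*, beside 715 of all 12513 genes. Estimates were lower in KO for 10 and higher for 6, with a median log2 fold change of -0.13. For *Arntl*, *Per3* and *Cry1* the KO libraries all lay below the WT libraries, and for *Npas2* and *Fbxl21* all above, beside 6.15% and 6.25% of all genes. *Npas2*, a paralog of *Clock* that also pairs with Bmal1, had the largest difference, with 1.44, 7.50 and 4.94 CPM in WT and 21.5, 28.8 and 9.11 CPM in KO. Its log2 KO/WT was 2.08 ± 0.74 (edgeR adjusted p = 0.70). *Fbxl21*, which encodes an F-box protein that acts on Cry stability, had a log2 KO/WT of 1.92 ± 0.99 on 3 to 30 counts per library. *Arntl*, the gene of Bmal1, was at 45.7, 40.1 and 37.4 CPM in WT and at 34.0, 30.4 and 31.0 CPM in KO (log2 KO/WT -0.37 ± 0.33). *Cry1*, a partner of the Per proteins, was at 24.2, 21.02 and 31.5 CPM in WT and at 12.97, 13.1 and 17.0 CPM in KO (log2 KO/WT -0.83 ± 0.43, edgeR adjusted p = 0.93). *Arntl* and *Cry1* are named here for their groups without overlap, seen after their values were known.

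All 8 clock output genes examined were tested, with 4 estimates lower and 4 higher in KO and a median log2 fold change of 0.00069. None passed with edgeR or DESeq2, and 1, *Tsc22d3*, was under an unadjusted p of 0.05, as were 715 of all 12513 genes. *Tsc22d3*, a gene induced by glucocorticoids that cycles in many tissues, was at 496, 577 and 410 CPM in WT and at 254, 365 and 352 CPM in KO. Every KO library was below every WT library, the only such gene of the 8, beside 6.15% of all genes. Its log2 KO/WT was -0.61 ± 0.22 (edgeR adjusted p = 0.71). *Klf9*, a further glucocorticoid-induced gene, had overlapping groups (log2 KO/WT -0.74 ± 0.38). *Usp2*, a deubiquitinase gene with a strong rhythm in many tissues, had a log2 KO/WT of -1.48 ± 1.43 on 0 to 109 counts per library.

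**Figure D4:**
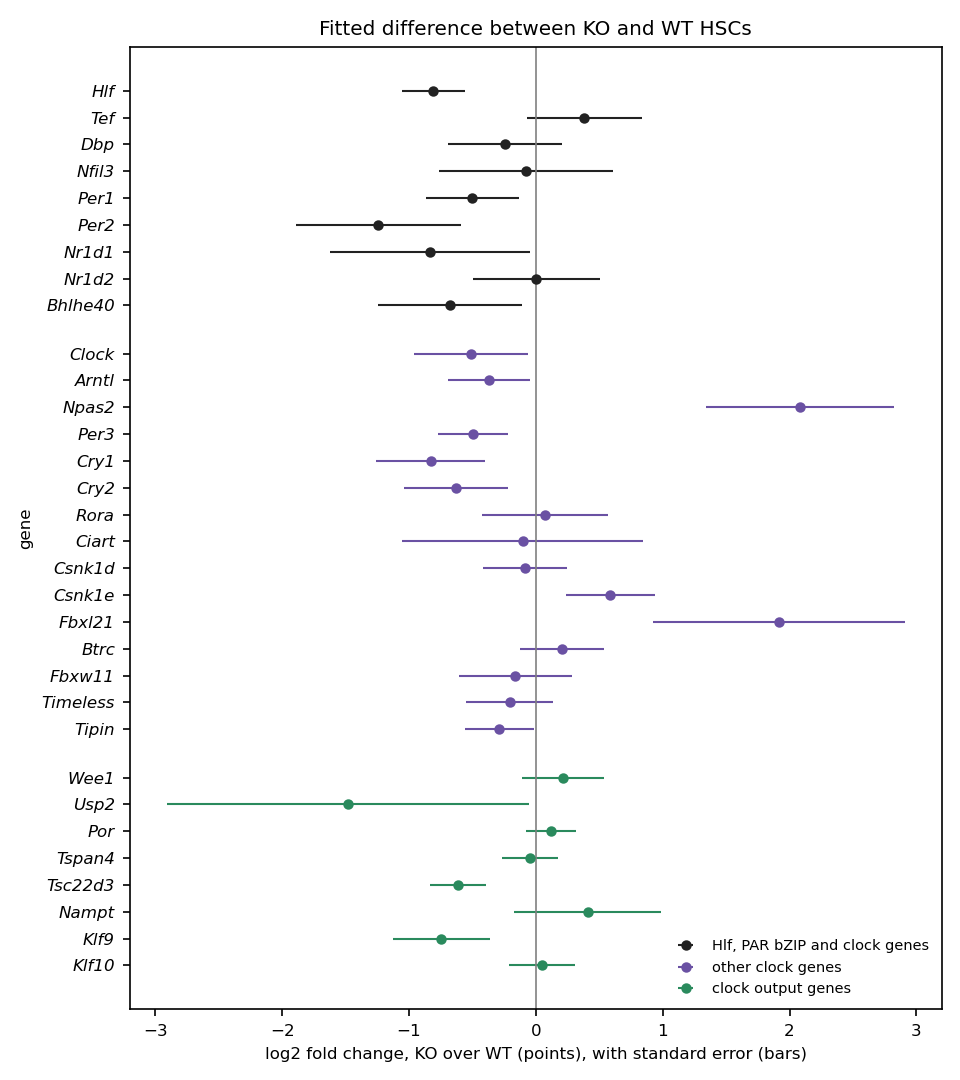
Log2 fold change of KO over WT (points) with its standard error (bars) from the fit over all 12513 genes, for the 9 tested genes (black), other clock genes (purple, all but 1 of the 16 tested) and 8 clock output genes (green). *Hlf* stands at -0.81 with the shortest bar of the black points, *Tef* at 0.38 and *Nr1d2* at 0.0044, and *Npas2* at 2.08 is the farthest to the right.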

How the data were processed

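Raw read counts for each gene were deposited by the authors beside FPKM values, which are those counts over a single gene length and over the library's total. The submitters' processing notes name TopHat, HTSeq and the build mm10; the strand setting and annotation are not given in the sources used here. The labels describe SMART-Seq v4 amplification and the study's methods a TruSeq kit. Neither mentions molecular identifiers, so counting error leaves out duplicated reads. Coordinates come from GENCODE M21 on GRCm38, in which 34267 of the 34745 identifiers were found.

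Differences were fitted to the counts with edgeR 4.0.16 under R 4.3.3 (filterByExpr, TMM, robust quasi-likelihood test, Benjamini-Hochberg adjustment over all genes tested at 0.05). DESeq2 1.42.0 and limma 3.58.1, on log2(FPKM + 1) and log2(FPKM + 0.1), were alternatives. The procedure was tested on simulated data. CPM use TMM-scaled library sizes, for which 3 counts correspond to 0.369 to 0.927 CPM. Groups and replicate numbers come from the sample titles.

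The genes, lists and tests were chosen with earlier results of these data known. Named genes are *Med23*, the 10 genes, the 3 largest absolute fold changes of each list, and the 5 profiles nearest to *Hlf*; exceptions are marked, and 1 gene is not reported here.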

Additional observations from a re-analysis of the deposited data

How the results depend on the processing

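No gene of the 10 and no gene of the clock lists was called under any of the 16 alternatives, and 6 to 8 of the 9 tested genes had a lower estimate in KO. The number of genes called, 9 of 12513, was 149 with DESeq2, 15 with limma on log2(FPKM + 1) at a mean FPKM of at least 1, 5 with the replicate block, 4 without the muscle markers, *H19* and *Igf2*, and 5 to 11 with 1 library left out; the cause was not tested. The log2 fold change of *Hlf* stayed negative throughout, from -0.98 without WT replicate 1 to -0.54 without the library labelled WT replicate 3, and was -0.77 with the replicate block and -0.62 without both libraries numbered 3. In those 2 libraries 4 Y-linked genes summed to 1 and 0 counts, against 1036 or more in the others. *Per1* and *Per2* also kept a negative and *Tef* a positive estimate. *Dbp* was at 0.07 without WT replicate 2, *Bhlhe40* at 0.08 without both libraries numbered 3, *Nfil3* between -0.56 and 0.26 and *Nr1d2* between -0.39 and 0.43 with 1 library left out. Same-numbered WT and KO libraries deviated together with correlations over genes of 0.27, 0.06 and 0.28, and differently numbered ones correlated at -0.29 to 0.09. WT replicate 2 correlated better with KO replicate 1 (0.09), so the numbers were not taken as pairs in the main fit. Both libraries numbered 3 nevertheless lacked Y-linked counts, and the main fit takes that difference between donors as spread. With the replicate block the standard error was 0.18 for *Hlf*, against 0.25, and 1.04 for *Nr1d1*, against 0.79. The standard errors of the 9 genes in the main fit, 0.25 to 0.79 on the log2 scale, limit what could be detected. At these depths *Bhlhe41* could not be measured.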

Other observations

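Genes that respond within minutes to hours to stimulation or stress, a group to which *Per1* also belongs, were read from a list of 13, of which 12 were tested. None passed an adjusted p of 0.05 with edgeR or DESeq2, and 2 were under an unadjusted p of 0.05, as were 715 of all 12513 genes. The median log2 fold change was 0.09, with 7 estimates higher and 5 lower in KO. Of all genes tested, 6.25% lay above and 6.15% below in every KO library. *Fos*, a subunit of AP-1, was at 51.5, 15.9 and 7.42 CPM in WT and at 9.12, 2.18 and 18.6 CPM in KO (log2 KO/WT -1.32 ± 0.84, fitted difference and standard error). *Ier3* was higher in every KO library (log2 KO/WT 0.78 ± 0.33, edgeR adjusted p = 0.82), and *Nr4a1*, a nuclear receptor gene, stood at -0.69 ± 0.70. *Fkbp5*, a glucocorticoid-induced gene named after its values were seen, was lower in every KO library (log2 KO/WT -0.68 ± 0.31, edgeR adjusted p = 0.87), whereas *Sgk1* and *Dusp1*, also induced by glucocorticoids and named after their values were seen, stood at 0.66 and -0.04.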
